A study of Carex littledalei with 18 samples.

Results

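Of 214531 assembled leaf genes of the sedge Kobresia littledalei (Carex littledalei), 135 were picked as lower at 48 h at -5 °C than before. At 48 h, 9 of them had 0 reads, while others were only reduced. They were chosen by their values. In a table scaled for gene length and library, all 3 values at 48 h had to lie below the lowest of 14 values at the other times. The means at 12 h and at 24 h each had to be at least 3 times the 48 h mean, with 0.1 added to every mean, and the mean of the other 14 values had to be at least 2. Genes whose 12 h and 24 h means were both already at or below 50% of their early mean were left out. The early mean is taken over the 8 values at 0, 0.5 and 4 h. The rule allowed up to 150 genes, but 135 met it, so all of them are members.

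Field plants from Tibet stood in pots at 25 °C for 7 days and were then moved to -5 °C, with 1 pot for each of 6 times. Leaves were sampled at 0, 0.5, 4, 12, 24 and 48 h, and polyadenylated RNA was sequenced from 3 libraries per time. No group was kept warm for the same time, and the labels name no genotype beyond the species. The pot, the time passed and the cold at 48 h therefore cannot be told apart, and nothing in the labels says that the 3 libraries of a pot are separate plants. If they are not, p-values measure a spread that may be technical.

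Plants that survive freezing do so in part by cold acclimation, in which CBF transcription factors switch on a set of cold-regulated genes for protective proteins, membrane lipids and sugars. Ice that forms outside the cells at subzero temperatures draws water out of them, so freezing is also a drought for the leaf. How much of a transcript is found depends on how fast it is made and how fast it decays, and in whole leaves fewer cells that carry a transcript and less of it per cell cannot be told apart. By their identifiers, the rows here come from a Trinity assembly, which builds transcripts from the reads without a genome. It sorts them into genes and joins genes with shared sequence into components. Alleles, copies and fragments of 1 plant gene can thus be separate rows. The files do not pair the identifiers with gene names, so members are described by their rank in level, and the leaf label was not checked against marker genes.

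Libraries held between 18895399 and 32345479 counts. A single set of values, equal over 214531 rows, was deposited both as 0 h replicate 1 and as 4 h replicate 1. The choice of members used these values once, at 0 h, which leaves 17 libraries, and the tests used neither copy. In 24 h replicate 2, 17792 rows had at least 90% of their reads, against 0 to 1468 rows in the other 16 libraries. That library was the lowest of the 14 for 0 members, and the rule without it gave 134 rows, 130 of them members.

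Of all rows, 355 had 48 h values that did not overlap the other 14, and 217 of these had a mean of at least 2 at the other times. The 217 were 0.806% of the 26929 comparable rows, those with such a mean and no value of 0 at the other times. At 12 or 24 h, 77 of the 217 missed the 3-fold minimum, and 5 more were left out because they were already low at 12 and 24 h. Just inside the 3-fold limit a member had 3.02 times its 48 h mean, and just outside it a row had 2.98 times. The member of lowest level had a mean of 2.00 over the other 14 libraries, and the nearest row below the limit had 1.97. Leaving out 48 h replicate 1, 2 or 3 raised the number of rows that meet the rule to 217, 220 and 249, since 2 values then have to lie below the rest. Because these values chose the members, the levels and ratios at 48 h are given below as a description.

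The members ranged widely in level and in how far they were down. Values here are scaled units, adjusted for library and row length, as the authors deposited them. At 48 h the median of the members' means was 0.676, against 6.67, 5.64, 4.68, 6.23 and 7.82 at 0, 0.5, 4, 12 and 24 h. Over the other 14 libraries 8 members averaged above 100, 39 between 10 and 100, and 88 below 10. At 48 h the mean was under 1 in 77 members and at least 10 in 11. The lowest mean of any other time was 3.68 times the 48 h mean in the median member, and the ratio ran between 1.39 and 321 (0.1 added to each mean).

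**Figure D1:**
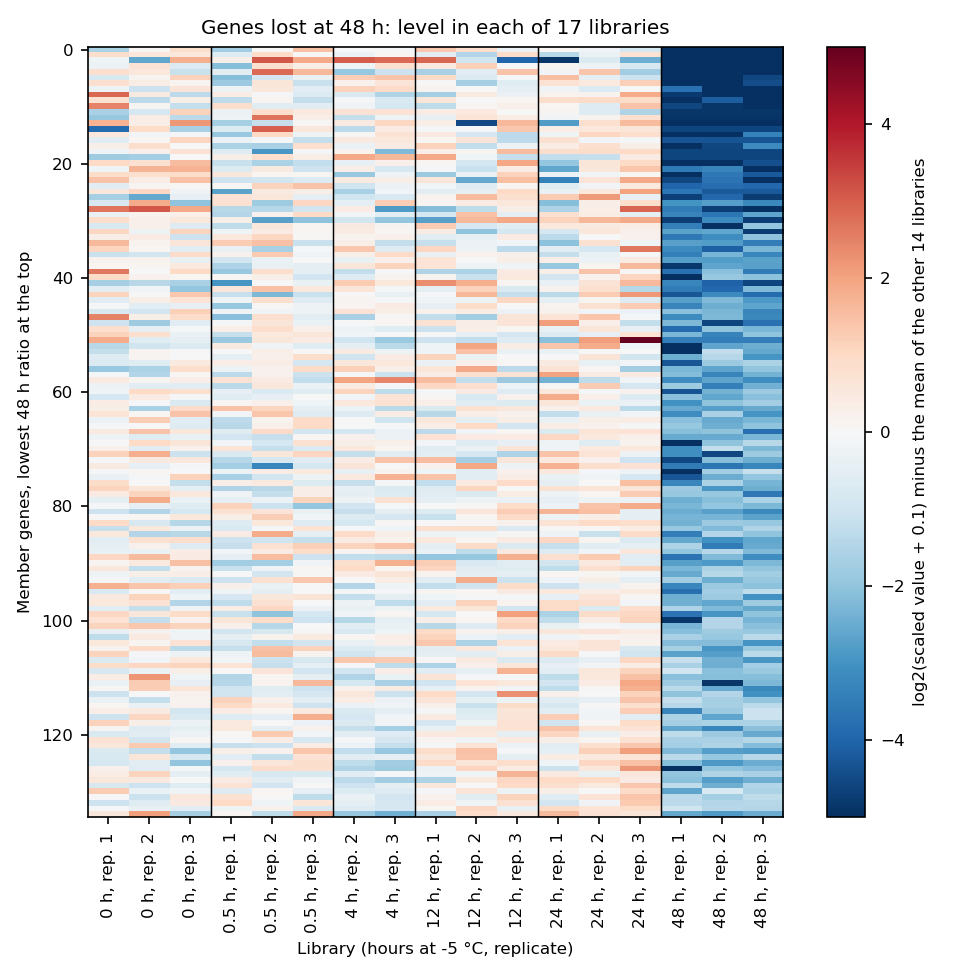
Level of each of the 135 members (rows, lowest 48 h ratio at the top) in the 17 libraries (columns, by hours at -5 °C), as log2(scaled value + 0.1) minus the mean of the 14 libraries other than 48 h; colours stop at -5 and 5. The 48 h columns are blue in every row because the rule chose the members on them, and the other columns show no block common to all members.

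Reads of the members together made up 0.0328%, 0.0325% and 0.0306% of the counts in the 3 libraries at 48 h. In the other 14 libraries the share had a minimum of 0.153%, in 24 h replicate 1, and a maximum of 0.312%, in 0.5 h replicate 2. The 3 shares at 48 h lay close together, and each was below every other library. The choice of members for low 48 h values largely set the second point, and nothing is read from it. In reads, the median member had 41 over the 3 libraries at 48 h and 1376 over the other 14. At 48 h, 33 members had at most 10 reads over all 3 libraries, and 9 members had 0. For these 9, a bound of 3 counts over the 48 h libraries puts the lowest other time between at least 5.33 and at least 171 times higher in CPM, counts scaled to the library total. The bound covers counting error only.

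The depth of the loss fell into a main body and a tail. The mode was a log2 ratio between -2 and -1.5, which held 44 members, and 29 members lay at or below -3, an 8-fold or larger difference from the lowest other time. The 8-fold boundary was drawn after the values were seen. In the 29, the median of the means was 0.116 at 48 h, against 10.1, 7.67, 5.25, 6.77 and 8.19 at 0, 0.5, 4, 12 and 24 h. In the other 106, it was 1.11 at 48 h, against 6.05, 5.12, 4.61, 6.13 and 7.08 at 0, 0.5, 4, 12 and 24 h. The ranges overlapped at the bottom: the lowest 48 h mean was 0 in both groups.

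Some of the most abundant members were at or near 0 at 48 h. The member of lowest ratio, of rank 16 by level, had 0 in all 3 libraries at 48 h. It had 12.9, 39.6 and 70.7 at 0 h, 11.4, 38.1 and 105 at 0.5 h, and 39.0 and 37.0 at 4 h. At 12 h its values were 98.3, 69.8 and 30.7, and at 24 h they were 41.3, 33.8 and 21.0. Every library before 48 h read it clearly, and its bound is at least 171 times higher in CPM at the lowest other time.

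The next lowest ratio belonged to the member of rank 7 by level. It had 0, 0.644 and 0 at 48 h, against 181, 146 and 141 at 0 h, 62.5, 184 and 96.4 at 0.5 h, 79.0 and 105 at 4 h, 68.3, 34.9 and 183 at 12 h, and 37.6, 77.0 and 162 at 24 h. Its lowest value before 48 h was 54.2 times its highest at 48 h, the widest gap among the 126 members with any read at 48 h. The member of rank 4 had 0.895, 2.12 and 0.769 at 48 h, against a minimum of 30.0, a median of 140 and a maximum of 301 over the other 14 libraries. Its time means before 48 h stayed between 109, at 24 h, and 206, at 12 h, so the level was similar at all 5 earlier times.

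The most abundant member, TRINITY_DN198794_c5_g1, had a different course. It had 167, 31.9 and 674 at 0 h, 240, 1679 and 719 at 0.5 h, and 1573 and 1384 at 4 h. At 12 h the values were 1409, 97.4 and 12.5, at 24 h 6.5, 118 and 35.7, and at 48 h 0, 0.927 and 0. Its 12 h mean of 506 ± 783 (SD, n = 3) rests on replicate 1, and its 24 h mean of 53.5 ± 58.0 (SD, n = 3) was already below those of the earlier times. The 5 earlier times spanned 258-fold between libraries, so its low values at 48 h follow a wide range and not a level plateau.

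The second most abundant, TRINITY_DN200183_c0_g1, was reduced but far from silent. It had 80.5, 80.6 and 95.2 at 48 h, against 386, 308 and 371 at 0 h, 238, 207 and 493 at 0.5 h, 545 and 377 at 4 h, 768, 619 and 609 at 12 h, and 954, 648 and 558 at 24 h. The mean was 85.4 ± 8.50 at 48 h and 720 ± 208 at 24 h (SD, n = 3 each). Its highest time mean came at 24 h, the last sampling before the low one.

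**Figure D2:**
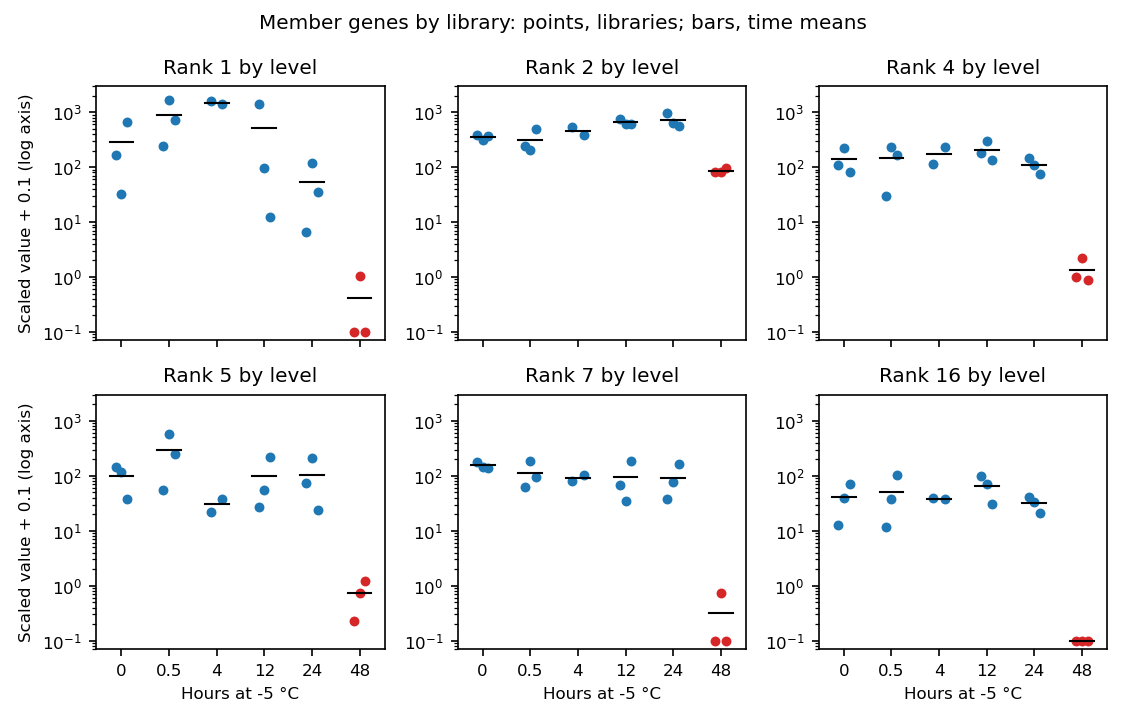
Scaled values plus 0.1 (log axis) of the members of rank 1, 2, 4, 5, 7 and 16 by level against hours at -5 °C; points are libraries (48 h in red) and bars are time means. Rank 2 stays near 85.4 at 48 h, rank 16 is at 0 in all 3 libraries, and rank 1 is already spread between 6.5 and 118 at 24 h.

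The member of rank 5 varied strongly between libraries before 48 h. It had 0.128, 0.644 and 1.12 at 48 h, against 142, 117 and 37.6 at 0 h, 55.6, 581 and 249 at 0.5 h, 21.6 and 38.3 at 4 h, 26.4, 54.0 and 216 at 12 h, and 73.2, 210 and 23.9 at 24 h. The member of rank 10 had 0, 0 and 2.92 at 48 h, so its remaining signal came from a single library, and between 15.9 and 200 (median 61.7) at the other times. That of rank 13 had 0.266, 0.951 and 2.34 at 48 h and between 14.9 and 122 (median 65.1) before. None of these 3 overlapped between 48 h and the rest, as the rule requires.

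The other members of lowest ratio were less abundant. The member of rank 23 had 2.17, 0.275 and 0.249 at 48 h, against 13.9 to 65.9 (median 27.8). That of rank 27 had 0.501, 0.118 and 0.057 at 48 h, against 4.98 to 121 (median 16.99), and the maximum came from 0 h replicate 1. Rank 65 had 0, 0.251 and 0 at 48 h, against 2.38 to 11.9 (median 6.54), and its 24 h values of 11.2, 11.9 and 11.5 were tight. Its component is that of TRINITY_DN200183_c0_g1, so reads may be divided between these members.

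Other abundant members also kept a level at 48 h. The member of rank 3 had 63.4, 16.4 and 31.7 at 48 h, against 82.6 to 490 (median 133) in the other 14 libraries. Rank 6 had 46.6, 30.9 and 43.6 at 48 h, against 49.6 to 308 (median 117), and its lowest earlier value was 1.06 times its highest at 48 h. Rank 8 had 27.1, 11.1 and 24.0 at 48 h, against 33.9 to 236 (median 83.8). Rank 9 had 15.1, 10.4 and 9.71 at 48 h, against 18.3 to 296 (median 72.7), with its lowest values at 0 and 4 h.

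The gap between 48 h and the rest was narrow in many members. Among the 126 with any read at 48 h, the lowest earlier value was 1.45 times the highest 48 h value in the median member, and 1.0008 times in the closest. Relative to the lowest other time mean, 43 members were down less than 3-fold and 10 less than 2-fold. In 9 of the 10 members of highest ratio, that lowest time was either 4 h or 0.5 h. The rule's 3-fold minimum at the last times before 48 h kept those times from being the lowest in members down less than 2-fold. The rule thus largely set this count, and nothing is read from it. The member of highest ratio had 0.245, 0.181 and 0.260 at 48 h, against 0.434 and 0.279 at 4 h, while its 24 h values were 5.88, 3.18 and 2.99. In this member 4 h was nearly as low as 48 h.

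**Figure D3:**
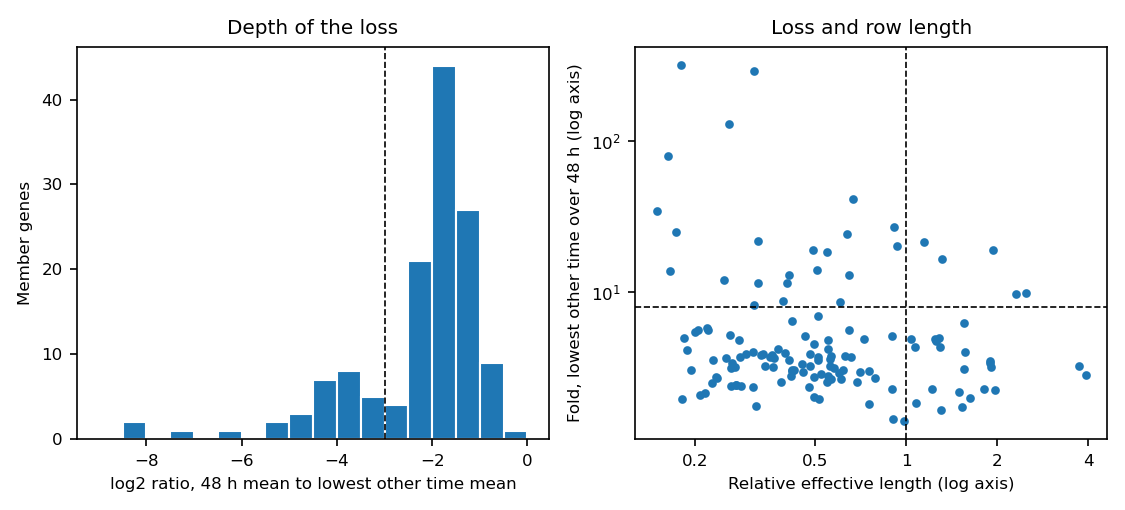
Left, number of members by log2 ratio of the 48 h mean to the lowest other time mean, with the 8-fold boundary dashed. Right, fold by which the lowest other time exceeded 48 h against relative effective length (both log axes) for 134 members with a length. Dashed lines mark 8-fold and a length of 1. Of the 29 members beyond 8-fold, 28 have a length, and most members lie left of 1.

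Before 48 h the members peaked at different times. The highest of the 5 earlier means was that of 0 h for 31 members, 0.5 h for 18, 4 h for 21, 12 h for 21 and 24 h for 44 (32.6%). Among comparable rows 24 h was the highest of these 5 times in 16.6%. The lowest was 4 h in 53 members (39.3%, against 24.1% of comparable rows) and 12 h or 24 h in 12 each. The rule itself asks for levels at 12 and 24 h and so shapes these shares, and nothing is read from them. By means, 84 members stood above their early mean at 24 h, and 5 were at or below 50% of it.

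The steps between neighbouring times up to 24 h are given as a description. The rule asked for levels at 12 and 24 h and left out genes low at both, so a gene already lost at 24 h could not be a member. Genes were tested with edgeR's quasi-likelihood F test over 68030 rows and 16 libraries. All 135 members passed its filter on low counts. Being chosen for their level before 48 h, they had to pass such a filter. At 24 h against 12 h, 0 members passed an adjusted p of 0.05, and 0.0% of all tested rows did. At an unadjusted p under 0.05 there were 3 members (2.22%), against 1.85% of the comparable rows and 2.97% of all tested rows. DESeq2 and limma called 0 members, with 0.0353% and 0.0% of tested rows. Their median log2 fold change was 0.21 and that of comparable rows 0.01, with 60.7% of members above 0 and 51.3% of comparable rows. Without 24 h replicate 3 the medians were -0.01 in both, with 48.1% of members and 48.9% of comparable rows above 0. By the unadjusted p, there were 1 to 7 members when single libraries were left out. Without 12 h replicate 3 there were 7 (5.19%, against 4.95% of comparable rows). Without 12 h replicate 2 there were 5 (3.70%, against 1.56%). Either library at 4 h left out gave 1 (0.741%, against 1.56%). Either at 0 h gave 2 (1.48%, against 1.76% and 1.77%), as did 24 h replicate 3.

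The 3 members at an unadjusted p under 0.05 were named after their values were seen. TRINITY_DN198794_c5_g1 was lower at 24 h, with a log2 fold change of -3.30, and the members of rank 13 and 77 were higher; the edgeR adjusted p was 1 for all 3. The member of rank 77 had 0.154, 4.50 and 64.4 at 24 h, against 0.429, 0.367 and 0.603 at 12 h, and 0 in all 3 libraries at 48 h. Its 24 h mean rests on replicate 3, and with 418-fold between its highest and lowest library it had the widest range of all members before 48 h.

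The earlier steps gave 0 member calls in edgeR and limma and 1 or 2 in DESeq2. At 12 h against 4 h, 0 members passed, against 0.0382% of all tested rows, and 16 had an unadjusted p under 0.05, 15 of them higher (11.9%, against 6.08% of comparable and 6.04% of all tested rows). The 16 became 5 without 4 h replicate 2 (3.70%, against 3.75% of comparable rows) and 3 without 4 h replicate 3 (2.22%, against 2.22%). They became 7 without 12 h replicate 2 (5.19%, against 4.48%) and 10 without 24 h replicate 2 (7.41%, against 5.50%). DESeq2 called 2 members (0.808% of tested rows) and limma 0 (0.0779%). The median log2 fold change of the members was 0.54, and 0.04 in comparable rows; the rule leaves out genes that were low at both 12 and 24 h and so bounds this step. At 4 h against 0.5 h, 0 members and 0.0% of tested rows passed, with 17 members at an unadjusted p under 0.05, of which 8 were higher and 9 lower (12.6%, against 7.43% of comparable and 7.71% of all tested rows). The 17 became 6 without 4 h replicate 2 and 7 without 4 h replicate 3 (4.44% and 5.19%, against 3.93% and 3.15%). DESeq2 called 1 member (0.667% of tested rows) and limma 0 (0.243%). At 0.5 h against 0 h, 0 members passed, against 0.00588% of tested rows, with 18 at an unadjusted p under 0.05, 5 higher and 13 lower (13.3%, against 4.69% of comparable and 5.98% of all tested rows). The 18 became 8 without 0 h replicate 3 (5.93%, against 6.01% of comparable rows). Without 0 h replicate 2 they became 11, 6 higher and 5 lower (8.15%, against 4.33%). They became 11 without 0.5 h replicate 2 or 4 h replicate 2 (8.15%, against 3.63% and 3.83%). Without 4 h replicate 3 they became 12 (8.89%, against 3.84%). DESeq2 called 1 member there (0.36% of tested rows) and limma 0 (0.245%).

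At 48 h against 24 h, edgeR called 25 members lower and 0 higher at an adjusted p of 0.05, where 0.0691% of tested rows were lower and 0.0955% changed in either direction. DESeq2 called 109 members (2.38% of tested rows) and limma 45 (0.985%). At 48 h against 0 h, edgeR called 16 lower and 0 higher, where 0.0382% of tested rows were lower and 0.0779% changed. DESeq2 called 76 (1.58%) and limma 27 (0.767%). At an unadjusted p under 0.05, 134 members passed against 24 h (11.4% of tested rows) and 118 against 0 h (10.3%). The rule used both contrasts, so these counts describe how many members each test could resolve, and nothing is read from them. The median log2 fold change was -3.13 against 24 h and -2.71 against 0 h.

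Single libraries moved the edgeR counts. The 25 calls against 24 h became 5, 4 and 6 without 48 h replicate 1, 2 or 3, and 13 without 24 h replicate 2. Each of the 2 libraries that the fit held at 0 h, and each of the 2 at 4 h, left 15 calls when dropped. The 16 calls against 0 h became 4, 5 and 7 without 48 h replicate 1, 2 or 3. Dropping 0 h replicate 2 left 3 calls, 0 h replicate 3 left 5, and either library at 4 h left 9. The lone library left at a time is then assumed to vary like the others. Dropping a 0 h or 4 h library also loosened the filter, so that 95186 to 97017 rows were tested in place of 68030. These counts therefore mix the library with the changed set of rows.

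**Figure D4:**
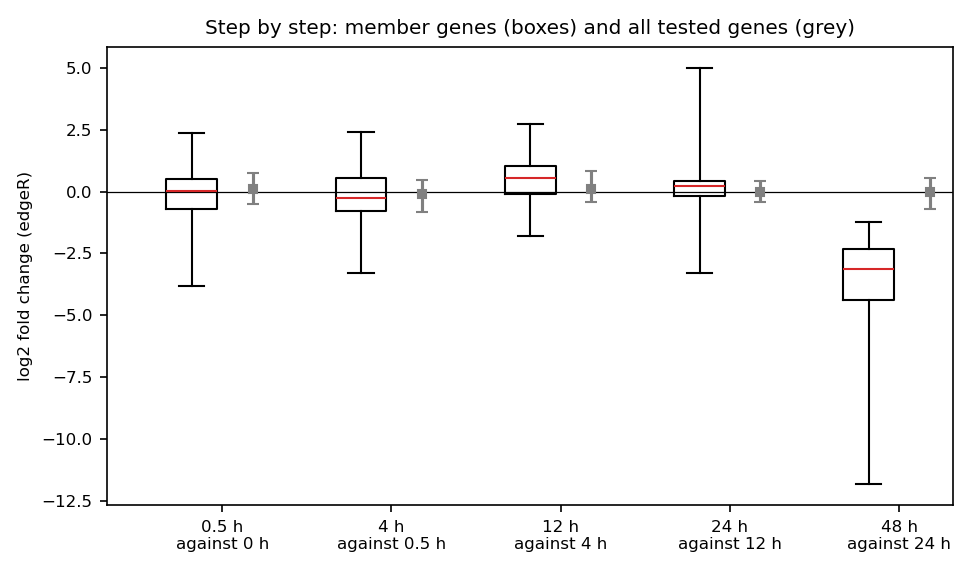
edgeR log2 fold changes of the 135 members at each step between neighbouring times (boxes, quartiles with the median in red; whiskers, lowest and highest) beside the median and quartiles of all 68030 tested rows (grey). Medians lie between -0.26 and 0.54 at the 4 steps up to 24 h, and at -3.13 for 48 h against 24 h, the step used to choose the members.

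The members did not vary together across the 14 libraries before 48 h. The correlation of log2 levels had a median of 0.05 over 9035 pairs of members in different components, with 5% of pairs below -0.50 and 5% above 0.56. In the 10 pairs that share a component it had a median of 0.80 and ran between 0.39 and 0.93. Pairs in a component share sequence and possibly reads, and all pairs share libraries and depth. Only 3 pairs in different components exceeded 0.9. The closest, at 0.99, joined the members of rank 61 and 133, both with their maximum in 0 h replicate 1, at 31.7 and 8.20, and their minimum before 48 h in 0.5 h replicate 1, at 1.27 and 0.247. Both were lower still in 48 h replicates 1, 2 and 3, the first at 0.288, 1.11 and 0.351 and the other at 0.064, 0.212 and 0.057.

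Spread between libraries of the same time was larger in members than in comparable rows. The pooled SD of log2 level within a time, over the 14 libraries, had a median of 0.80 in members and 0.64 in comparable rows. It was 1.00 in the 29 members beyond 8-fold and 0.76 in the other 106. Over those 14 libraries, highest and lowest differed by a median of 7.03-fold, and by at least 10-fold in 50 members.

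Members were short rows. Dividing counts by scaled values gives each row's effective length. It was set relative to the median comparable row within each library, and the median over libraries was taken. This relative length could be had for 134 members, and 106 of them were shorter than the median comparable row. The median was 0.49 in members, with quartiles of 0.31 and 0.78, against 0.94 in comparable rows, with quartiles of 0.47 and 1.79. Comparable rows of the same level had a median of 0.94, and 23 of the 28 members beyond 8-fold that have a value were short. A short assembled row can be a short transcript or a fragment of a longer one, which the files do not separate, and its part in the result was not tested.

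The loss was then followed in the rest of each component. The 135 members lay in 125 components, 115 with 1 member and 10 with 2; 7 components consisted of the member alone. Summed over all rows, 56 of the 125 components had 48 h values below all other 14. The sums hold the member rows, so the rule fixed part of this count. No share over all components stands beside it, and nothing is read from it. The median log2 of the 48 h mean over the mean of the other 14 libraries was -2.66 for the members' sum and -1.77 for the whole component, against -0.01 for comparable rows. Members made up a median of 25.1% of their component's signal at 48 h, against 52.5% in the other libraries. The choice of members for low 48 h values pulls this share down, so nothing is read from it. In 34 components the whole was down by less than 2-fold or was higher at 48 h.

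In 84 components the other rows together averaged at least 2 over all libraries, 48 h included. This limit favoured other rows that were high at 48 h. The median log2 ratio of the other rows was -0.62, while that of the members beside them was -2.68. The rule chose the members for low 48 h values, so nothing is read from the difference. The other rows were below all 14 earlier values in 11 of the 84 (13.1%), against 0.665% of comparable rows whose component has such a remainder. They were above all 14 in 2 (2.38%, against 1.47%). Reads of shared sequence can be assigned to either row, so the remainder is not independent of the member, and the share of this in the values was not tested.

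Components differed in kind. For the members of rank 4 and 5 the other rows were listed at 0 in both averages, so the whole component was down to 1.26 at 48 h, against 153, and to 0.631, against 132. For the member of rank 16 the rest of the component stood at 233 at 48 h, against 505 at the other times, while the member was at 0. For that of rank 7 the rest stood at 117 at 48 h, against 246. In 1 component with 2 members, of rank 78 and 80, the other rows were low too, at 0.034 at 48 h, against 13.6.

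Of 456 other rows in the members' components, 3 had all 48 h values above all earlier ones, as did 1556 of the 214531 rows in all. The 3 are given as examples, and nothing is read from their number. TRINITY_DN197868_c1_g3 had 21.7, 7.57 and 20.005 at 48 h, against 0 to 2.72 (median 0) in the other 14 libraries. The member beside it, of rank 56, had 0.224, 0.039 and 0 at 48 h, against 0.414 to 31.2 (median 3.10). Its component as a whole averaged 17 at 48 h and 11.1 at the other times, so its sum was not lower at 48 h although the member was.

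TRINITY_DN203656_c3_g1 had 12.2, 10.9 and 15.3 at 48 h, against 1.17 to 10.5 (median 6.55). The member beside it, of rank 25, had 9.27, 7.66 and 11 at 48 h, against 11.8 to 62.0 (median 30.9). The remaining one averaged 1.49 at 48 h and was listed at 0 in the other 14 libraries; it shares the component of the member of rank 10.

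**Figure D5:**
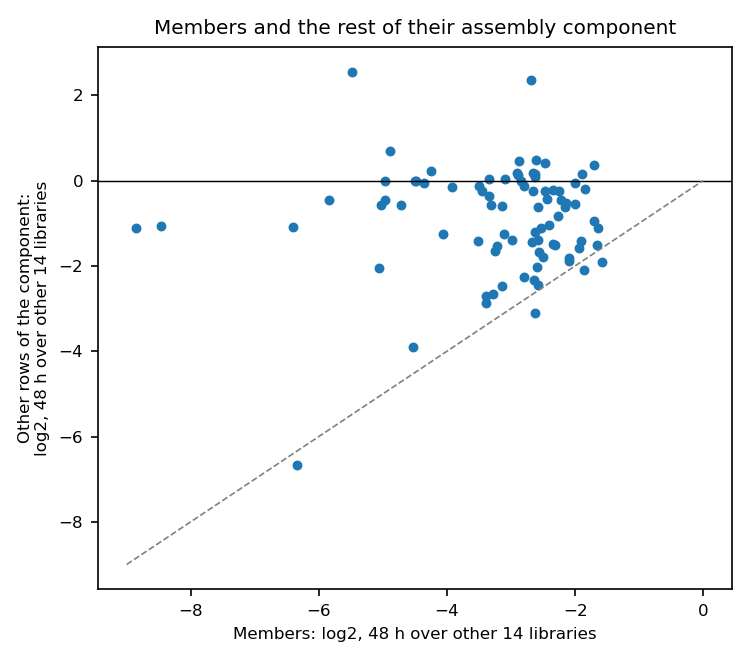
For the 84 components whose other rows average at least 2, log2 of the 48 h mean over the mean of the other 14 libraries for the members (x axis) and for the other rows together (y axis); the dashed line marks equal change. Most points lie above the line, with medians of -2.68 and -0.62, and the highest point is the component of TRINITY_DN197868_c1_g3. The members were chosen for low 48 h values, and the average of the other rows includes 48 h.

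CPM leaves out the length scaling but rests on the same reads, so members chosen for low 48 h values had to be low in it too. In CPM, 135 of 135 members had a lower mean at 48 h than over the other 14 libraries, and 119 (88.1%) did not overlap. In scaled values 0.806% of comparable rows did not overlap. The rule largely set the member counts, and nothing is read from them. Chosen on CPM by the same rule, 117 rows met it, of which 85 were members (63.0% of the members and 72.6% of the 117). Of the 119, 31 averaged under 2 CPM over the other 14 libraries.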

How the data were processed

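Trimmomatic 0.36 was used for trimming and FastQC for inspection, per the submitters' processing notes. No aligner, counter or genome build is given in the sources used here. Per the labels, 2 µg of total RNA went into each MGIEasy mRNA library. The authors deposited estimated counts (expected counts, not scaled) and, per its name, a signal table scaled for length and by TMM, a correction for library composition. The unit of that signal is not stated. Columns were matched by title, and 0 were unmatched.

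Members and lists were chosen with earlier results of these data known. The scaled signal gave the members and their levels. For tests, estimated counts were rounded and both identical columns left out. R 4.3.3 and edgeR 4.0.16 were used, with filterByExpr, TMM factors, a mean per time and the quasi-likelihood F test, adjusted by Benjamini-Hochberg over 68030 rows. Dispersion was high, at a common biological coefficient of variation of 69.3%, and 10 residual degrees of freedom were left. The procedure was tested on simulated data. CPM (counts scaled to the library total) used TMM factors of 17 libraries. Relative effective length used scaled values above 1 with at least 20 counts. A rule set which rows to describe: the 10 members of highest mean and the 10 of lowest ratio, with identifiers for 2 members and 2 neighbouring rows. Others were chosen after their values were seen, as was the 8-fold boundary. Alternatives were DESeq2 1.42.0, limma 3.58.1 on log2(value + 1), and other scalings, filters, offsets and libraries. No gene list or sequence could be used.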

Additional observations from a re-analysis of the deposited data

How the results depend on the processing

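The contrasts with 48 h moved most. For 48 h over 24 h, 25 members were called. An adjusted p of 0.01 left 5 (0.0147% of tested rows), and no filter gave 101 (3.46%). A fit of only the times compared gave 48 (1.19%), DESeq2 109 (2.38%) and limma 45 (0.985%). For 48 h over 0 h, 16 were called, and the stricter p, no filter, DESeq2 and limma gave 5, 68, 76 and 27. Of all tested rows, these settings called 0.0265%, 0.874%, 1.58% and 0.767%. Keeping the values deposited under both times as 0 h, as 4 h or as both, the count was 37, 10 and 26. The shares of all tested rows were then 0.289%, 0.0534% and 0.196%. Without single libraries the counts were 4 to 37 and 3 to 21. In the 4 steps up to 24 h, 0 members were called, and 0 to 0 without single libraries. No filter gave 2 calls for 24 h over 12 h (2.44% of tested rows) and 4 for 12 h over 4 h (0.638%). It gave 4 for 4 h over 0.5 h (0.628%) and 2 for 0.5 h over 0 h (0.392%). DESeq2 gave 2, 1 and 1 in all but 24 h over 12 h. The causes were not tested.

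With the replicate number as a block, 16 members were called for 48 h over 24 h (0.0456% of tested rows). For 48 h over 0 h, 9 were called (0.0382%), and 0 in each earlier step. Deviations of same-numbered libraries correlated between -0.33 and 0.35 (median -0.05) over 18 pairs, with 2 above 0.1. Those of differently numbered libraries correlated between -0.42 and 0.30 (median 0.01) over 36 pairs, with 10 above 0.1. By the median, same-numbered libraries were thus not more alike. Times that lack a library in the tests were not among these pairs. Whether libraries of the same number share a batch was not tested.

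The rule gave 76 rows with an offset of 1, 81 with a minimum mean of 5 and 69 components in place of rows, 47 of them holding members. Without single libraries it gave 121 to 249 rows. The median log2 ratio to the lowest other time, -1.88, was -1.62 in CPM, -1.20 with an offset of 1 and -0.98 over components, and -1.96 to -1.82 without single libraries. Depth limits the 48 h level of the 33 members with at most 10 reads there.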

Other observations

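The opposite pattern was counted in more rows, though the 2 counts are not alike. All 3 values at 48 h lay above the highest of the other 14 in 1556 rows, and 708 of these had a 48 h mean of at least 2, against 355 and 217 rows with all 48 h values below. A row with a value of 0 in any of the other 14 libraries could not be among the lower rows, but could be among the higher ones. The 2 sets also differ in what their level is taken from. It is the 48 h mean for the higher rows and the other 14 libraries for the lower ones. The difference in number was not tested.

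Within 48 h, replicate 1 had 23 members at 0 reads, replicate 2 had 14 and replicate 3 had 17. In the other 14 libraries 0 members were at 0. The rule fixed this, since every value there had to lie above those at 48 h, and nothing is read from it. The median member had 0.501, 0.833 and 0.701 scaled units in these 3 libraries.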
